A study of Mus musculus with 23 samples.

Results

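The difference between P301S and wild-type (WT) hippocampus in their response to hypoxia was measured across all genes as an interaction. It is the contrast (P301S hypoxia minus P301S normoxia) minus (WT hypoxia minus WT normoxia), on a log2 scale, so a positive value is a more positive hypoxia effect in P301S. All 23 libraries of the study entered one model with 4 group means, and 17788 of the 52636 genes in the files had enough counts to be tested. The groups were WT mice in normoxia (6 libraries), WT mice in hypoxia (6), mice labelled P301S in normoxia (5) and P301S mice in hypoxia (6). Every group had a mixed C57Bl6 and Balbc background. P301S is a mutation of human tau known from inherited frontotemporal dementia, and by the series title the exposure was chronic intermittent hypoxia. No source used here gives the promoter of the transgene, the age or sex of the mice or the hypoxia regimen. Nothing in the labels ties a library to its own animal, and the p-values therefore reflect how far libraries of a group spread, which may be technical. Every value comes from bulk tissue, in which fewer cells of a type and less RNA per cell cannot be told apart.

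Proteins that enter the secretory pathway are folded in the endoplasmic reticulum (ER) by chaperones such as BiP and calreticulin and by disulphide isomerases. When unfolded proteins build up there, the sensors IRE1, PERK and ATF6 start the unfolded protein response. ATF6 and the spliced form of XBP1 then switch on chaperone genes, while the PERK branch acts through ATF4 and CHOP. Tau-bearing neurons and oxygen shortage have each been studied as sources of such stress, and intermittent hypoxia is also known to act on activity-dependent genes, stress hormones and the clock.

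Libraries held 19.1 to 25.8 M counts. Markers of the 3 hippocampal fields were present: Prox1 of dentate granule cells had a mean of 121 CPM (counts scaled to library size), Fibcd1 of CA1 159 CPM and Nptx1 of CA3 685 CPM over all libraries. Choroid plexus tissue varied, with Ttr from 30.1 to 3176 CPM. Its 15 tested markers had a median hypoxia effect of -0.92 in WT and -0.66 in P301S and a median difference of 0.22, with 13 above 0 and none at an unadjusted p below 0.05. The 6 libraries lowest in choroid plexus markers were 1 of WT normoxia, 3 of WT hypoxia, 2 of P301S hypoxia and none of P301S normoxia. The numbers in the WT titles (66 or 37 in normoxia, 31 or 32 in hypoxia) are not explained and occur in 1 condition each, so what they stand for cannot be told apart from hypoxia in WT.

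The response to hypoxia differed between the genotypes for 7 genes (0.0394% of those tested). They were called at an adjusted p below 0.05, the Benjamini-Hochberg value over all tested genes from edgeR's quasi-likelihood test. The difference was positive for 5, Calr, Hspa5, Fam107a, Ptgs2 and Akr1e1 (0.0281%), and negative for 2, Mybpc2 and H2-Q2 (0.0112%). Each of the 7 had hypoxia effects of opposite sign in WT and in P301S. Most already differed by genotype before hypoxia is considered: 6 of the 7 were among 1130 genes called for P301S minus WT within normoxia. Within hypoxia that contrast called 333 genes, 2 of the 7 among them. Of the 1130, 395 had an unadjusted p below 0.05 for the difference of hypoxia effects. The same normoxia libraries enter both tests, so this overlap is a description. All 7 lay close to the threshold, with adjusted p from 0.0407 to 0.0435, and with edgeR's legacy form of the same test none passed (lowest adjusted p 0.0633). Of 35 alternative settings, 19 called 0 genes, 13 of them by leaving out 1 library, and DESeq2 called 52. The 0 counts went with 1058 to 2202 genes at an unadjusted p below 0.05. Without a correction for the number of genes, 1678 genes (9.43%) had p below 0.05, 776 higher (4.36%) and 902 lower (5.07%). The sizes of the 7 differences were steadier than their calls and kept their sign in every setting that tested them. These settings reuse the libraries from which the 7 were chosen, so the steady sizes and signs are a description.

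Hspa5 encodes BiP, the main Hsp70 chaperone of the ER (ENSMUSG00000026864, GRCm38 chromosome 2, 34771970 to 34777547). Its level ran from 241 to 348 CPM (median 298) in the 6 WT normoxia libraries and from 201 to 237 CPM (median 226) in the 6 WT hypoxia libraries. The P301S normoxia libraries had 187, 204, 209, 206 and 259 CPM, and the P301S hypoxia libraries 230.4 to 372 CPM (median 282). In WT, every hypoxia library lay below every normoxia library, while in P301S the hypoxia libraries were mostly higher, with overlap. The hypoxia effect was a log2 value of -0.37 (SE 0.103) in WT and 0.44 (SE 0.109) in P301S, neither called alone (adjusted p = 0.147 and 0.0766). Their difference was 0.81 (SE 0.15, adjusted p = 0.0435), or 1.75-fold. For Hspa5, P301S minus WT was -0.44 within normoxia and 0.37 within hypoxia.

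Calr encodes calreticulin, a lectin chaperone that also buffers ER calcium (ENSMUSG00000003814, chromosome 8, 84841850 to 84846934). WT libraries had 357 to 429.5 CPM (median 393.5) in normoxia and 298 to 336 CPM (median 323) in hypoxia. P301S libraries had 305, 285, 311, 295 and 348 CPM in normoxia and 329 to 433 CPM (median 362) in hypoxia. As for Hspa5, the WT groups did not overlap and the P301S groups did, in the opposite direction. The difference was 0.53 (SE 0.0917, adjusted p = 0.0407), from -0.29 in WT and 0.25 in P301S. For Calr, P301S minus WT was -0.34 within normoxia and 0.19 within hypoxia.

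Fam107a encodes an actin-associated protein known to be induced by stress and glucocorticoids (ENSMUSG00000021750, chromosome 14, 8296274 to 8318023). Its WT levels ran from 373 to 432 CPM (median 382) in normoxia and from 319 to 397 CPM (median 343.5) in hypoxia. The P301S normoxia libraries had 325, 253, 297.5, 320.5 and 316 CPM, and the P301S hypoxia libraries 366 to 462 CPM (median 391). Here the P301S groups did not overlap and the WT groups did. Fam107a rose with hypoxia in P301S by 0.39 (SE 0.0712, adjusted p = 0.0161), against -0.17 in WT (adjusted p = 0.312), and the difference was 0.56 (SE 0.098, adjusted p = 0.0407).

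Ptgs2 encodes cyclooxygenase 2, the inducible enzyme of prostaglandin synthesis, which is also an activity-dependent gene of neurons (ENSMUSG00000032487, chromosome 1, 150100031 to 150108227). WT levels were 17.9 to 21.9 CPM (median 20.3) in normoxia and 14.9 to 23.6 CPM (median 20.5) in hypoxia. P301S levels were 19.3, 17.9, 14.0, 15.3 and 20.8 CPM in normoxia and 27.8 to 34.0 CPM (median 28.7) in hypoxia. All 6 P301S hypoxia libraries lay above all 17 others. Ptgs2 rose with hypoxia in P301S by 0.77 (SE 0.102, adjusted p = 0.00158) and had a log2 value of -0.01 in WT. The difference was 0.78 (SE 0.141, adjusted p = 0.0407). For Ptgs2, P301S minus WT was -0.20 within normoxia and 0.58 within hypoxia.

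Akr1e1 encodes an aldo-keto reductase that reduces 1,5-anhydrofructose (ENSMUSG00000045410, chromosome 13, 4590750 to 4609174). Levels in WT were 14.3 to 30.4 CPM (median 23.4) in normoxia and 4.26 to 12.5 CPM (median 8.46) in hypoxia. P301S libraries had 13.9, 13.7, 14.6, 6.03 and 12.7 CPM in normoxia and 12.0 to 27.3 CPM (median 18.3) in hypoxia. The order of the genotypes crossed: P301S was lower than WT in normoxia by a log2 value of -0.87 (adjusted p = 0.0444) and higher in hypoxia by 1.15 (adjusted p = 0.024). Akr1e1 fell with hypoxia in WT (-1.40, SE 0.252, adjusted p = 0.0429) and was at 0.62 in P301S (adjusted p = 0.281). The difference was 2.02 (SE 0.36, adjusted p = 0.0407), or 4.06-fold, and was read from 158 to 350 counts per P301S normoxia library. Of 5 tested genes within 1 Mb, none had an unadjusted p below 0.05. Of the other 6 tested aldo-keto reductases, Akr1b8 had a difference of -0.78 at an unadjusted p below 0.05.

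Both genes with a negative difference were close to the limit of detection. Mybpc2, a myosin-binding protein of fast skeletal muscle (ENSMUSG00000038670, chromosome 7, 44501699 to 44524656), had 1 to 9 counts per library in WT normoxia and 6 to 13 in WT hypoxia. In P301S it had 9, 13, 16, 13 and 11 counts in normoxia and 3 to 8 in hypoxia, without overlap. The difference was -2.30 (SE 0.42, adjusted p = 0.0407) at a mean of 0.334 CPM. H2-Q2, a gene of the MHC class I Qa region (ENSMUSG00000091705, chromosome 17, 35342242 to 35346762), had 0 to 3 counts per library in WT normoxia, 6 in all. It had 1 to 14 counts in WT hypoxia, 22, 7, 12, 12 and 18 in P301S normoxia, and 1 to 10 in P301S hypoxia, with overlap within each genotype. Its difference of -4.42 (SE 0.855, adjusted p = 0.0407) rests on these counts and on reads that its near-identical neighbours can share, and is uncertain. The 11 tested genes of an MHC class I list had a median difference of -0.18, with 7 below 0 and 4 above. None of these 11 had an unadjusted p below 0.05, against 9.43% of all tested genes. The part of the mixed C57Bl6 and Balbc background in the H2-Q2 counts was not tested. With a minimum mean of 1 CPM neither Mybpc2 nor H2-Q2 was tested, and none of the other 5 called genes passed (lowest adjusted p 0.0533).

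**Figure D1:**
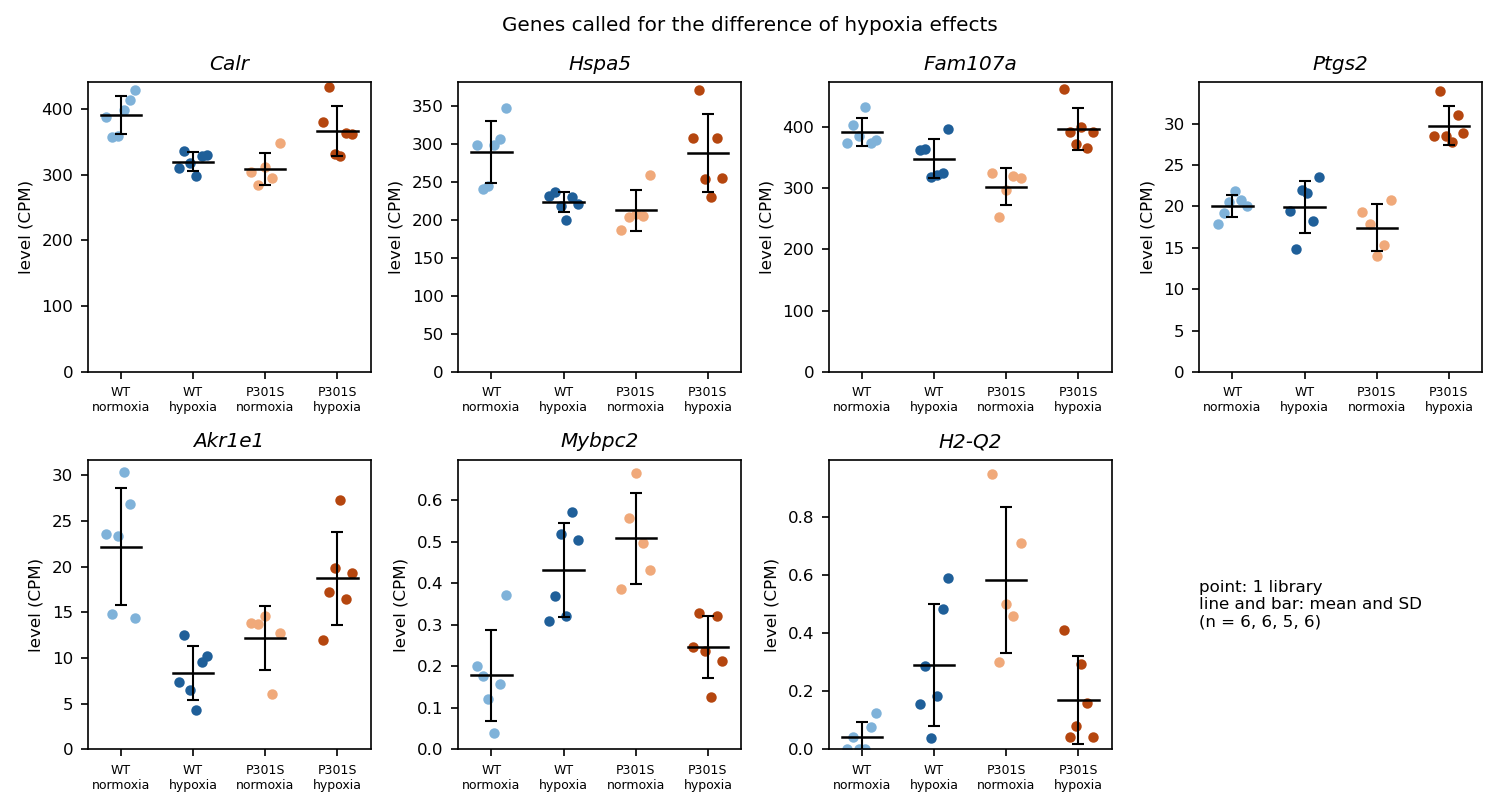
Levels in CPM (y axis, from 0) of the 7 genes called for the difference of hypoxia effects, by group (x axis), with 1 point per library and the mean and SD of the group (n = 6, 6, 5 and 6). Calr, Hspa5 and Akr1e1 are lower in WT hypoxia than in WT normoxia without overlap, Ptgs2 stands apart in P301S hypoxia (27.8 to 34.0 CPM), and Mybpc2 and H2-Q2 stay below 1 CPM.

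Hspa5 and Calr belong to a list of 23 genes of ER stress and the unfolded protein response, all tested. Of the 23, 2 were called (both higher) and 14 had an unadjusted p below 0.05 with a positive difference, against 4.36% of all tested genes. None had one with a negative difference. The median difference of the list was 0.32, beside -0.0036 over all tested genes. It came from both genotypes, with a median hypoxia effect of -0.16 in WT and 0.16 in P301S. Read the other way, the list had a median P301S minus WT value of -0.22 in normoxia and 0.14 in hypoxia. The list was thus already lower in P301S in normoxia, where the median over all tested genes was 0.0097. This was not particular to it. In normoxia the median was -0.23 for cytosolic ribosomal protein genes, -0.22 for oxidative phosphorylation and -0.17 for heat shock genes. Other lists were above 0, such as potassium and calcium channels (0.16). The same normoxia libraries enter these values and the difference of hypoxia effects. The count of 14 stayed between 12 and 14, and the median between 0.26 and 0.37, in all 35 alternative settings. These include the 17 libraries left without the 6 lowest in choroid plexus markers (13 members), a choroid plexus covariate (14 members) and a meningeal marker covariate (13 members).

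The members were grouped by role after their values were seen, so the split by role is a description. Of 7 luminal chaperones and their partners, 6 had an unadjusted p below 0.05, all higher, and so did both lectin chaperones, all 3 disulphide isomerases and both secreted ER stress proteins. Sdf2l1, a partner of BiP that keeps unfolded proteins soluble, had the largest difference of the list, 1.16 (SE 0.225, adjusted p = 0.0618). It ran from 7.80 to 14.3 CPM (median 10.1) in WT normoxia and 6.23 to 7.999 CPM (median 7.55) in WT hypoxia. In P301S it had 7.32, 5.07, 6.33, 4.58 and 6.58 CPM in normoxia and 7.85 to 13.7 CPM (median 8.41) in hypoxia. Every P301S hypoxia library lay above every P301S normoxia library, while the WT groups overlapped.

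Pdia6, a disulphide isomerase that also damps the sensor IRE1, had a difference of 0.56 (SE 0.113, adjusted p = 0.0754). Its WT levels ran from 108 to 147.5 CPM (median 125) in normoxia and 94.8 to 117 CPM (median 101) in hypoxia. Its P301S levels were 88.7, 89.9, 97.3, 93.6 and 104 CPM in normoxia and 101.5 to 141 CPM (median 109) in hypoxia. Both pairs of groups overlapped at their edges. Differences of the other isomerases were 0.49 for Pdia4 and 0.37 for Pdia3, with adjusted p of 0.222 and 0.183. Hyou1, the large ATP-exchange partner of BiP, had 0.44 (SE 0.0955, adjusted p = 0.134), and Hsp90b1, the ER form of Hsp90, 0.32 (adjusted p = 0.373). The smallest difference among members with an unadjusted p below 0.05 was that of calnexin (Canx), 0.17 (95% interval 0.02 to 0.32).

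Manf and Creld2 encode small proteins that leave the ER under stress. Manf had a difference of 0.69 (SE 0.14, adjusted p = 0.0754), but 92.3% of its gene body lies under Dcaf1, where reads that overlap both genes were dropped, so its level is uncertain. Creld2 had 0.64 (SE 0.149, adjusted p = 0.134). It ran from 19.6 to 30.4 CPM (median 26.2) in WT normoxia and 16.6 to 20.8 CPM (median 18.1) in WT hypoxia. The P301S libraries had 20.7, 17.0, 17.6, 17.7 and 20.3 CPM in normoxia and 18.1 to 24.5 CPM (median 21.3) in hypoxia, and both pairs of groups overlapped.

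The stress sensors themselves and the PERK branch did not show such values. Of the 3 sensors, none had an unadjusted p below 0.05: the difference was 0.08 for Ern1 (95% interval -0.12 to 0.28), 0.00 for Eif2ak3 (-0.14 to 0.14) and 0.07 for Atf6 (-0.16 to 0.30). Atf4, the transcription factor of the PERK branch, had -0.16 (-0.44 to 0.12) and Ddit3, which encodes CHOP, 0.08 (-0.11 to 0.27). The difference of Trib3, a target of CHOP, had the widest interval, -1.14 to 0.63. Herpud1 and Sel1l of ER-associated degradation each had 0.10, with intervals that include 0. Xbp1, the factor spliced by IRE1, was the 1 member of this group with an unadjusted p below 0.05, at 0.52 (SE 0.116, adjusted p = 0.134). Its counts do not separate the spliced from the unspliced form. Whether the chaperones differed from the sensors as groups was not tested.

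**Figure D2:**
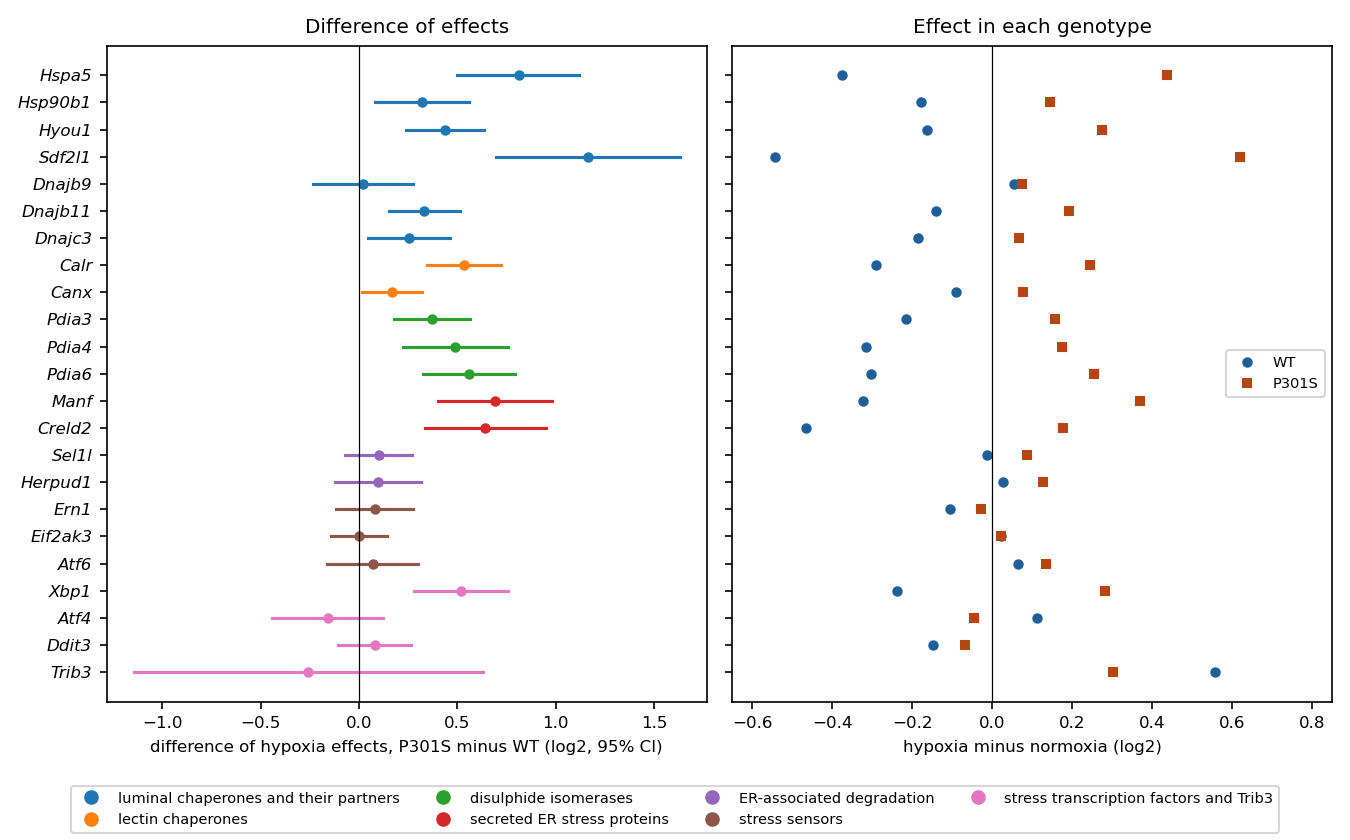
Left, the difference of hypoxia effects (P301S minus WT, log2, x axis) with its 95% confidence interval for each of the 23 ER stress genes (rows), coloured by role; right, the hypoxia effect in WT (circles) and in P301S (squares). Chaperones and isomerases other than Dnajb9 have a WT value below 0 and a P301S value above 0, while the intervals of the 3 sensors span 0.

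The promoters of these genes were read for the ER stress response element, which some chaperone genes carry. The element is the site through which ATF6 is known to act, written as CCAAT, any 9 bases and CCACG, and it was searched on both strands of the RefSeq promoter window (GRCm38.p6, 300 bases, of which the last 50 follow the start). The motif was chosen after the differences were seen. It was found in 7 of the 20 list members with a promoter entry, Hspa5, Calr, Pdia6, Creld2, Hsp90b1 (at 2 places), Dnajc3 and Canx. Among all 27025 symbols with a window, 37 (0.137%) held it. Manf, Hyou1 and Atf6 had no entry, and these letters were not in the windows of Sdf2l1, Pdia3, Pdia4, Dnajb11 and Dnajb9. Stretches of 59 bases around the element are shown for 5 members, 5′ to 3′ on the strand of the gene, the 4 with the lowest p and, for contrast, the member with the smallest difference. Capitals mark the CCAAT and CCACG parts, or their reverse complements ATTGG and CGTGG.
Hspa5 (chr2:34772005-34772063): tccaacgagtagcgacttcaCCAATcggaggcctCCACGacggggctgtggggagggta
Calr (chr8:84847055-84847113): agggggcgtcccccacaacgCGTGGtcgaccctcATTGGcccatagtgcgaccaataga
Pdia6 (chr12:17266471-17266529): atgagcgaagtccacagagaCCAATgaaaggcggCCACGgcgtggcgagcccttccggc
Creld2 (chr15:88819500-88819558): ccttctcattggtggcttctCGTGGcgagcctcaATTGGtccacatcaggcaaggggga
Canx (chr11:50325780-50325838): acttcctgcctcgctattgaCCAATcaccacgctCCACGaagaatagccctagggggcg
All 7 genes with the element had an unadjusted p below 0.05 and a positive difference, with a median of 0.53. Of the 13 members whose window does not hold these letters, 5 did, with a median of 0.10. Outside the list, 12 tested genes held the element, and their median difference was -0.02 (2 higher and 1 lower at an unadjusted p below 0.05). The stretch shown for Hspa5 lies inside the Ensembl gene span given above, because the RefSeq start used for the window lies downstream of the Ensembl start. Whether the element goes with the difference was not tested, and a match is no evidence that a factor was bound.

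Outside the ER, of 20 tested heat shock and mitochondrial chaperone genes, 7 had an unadjusted p below 0.05 with a positive difference (35%, against 4.36% of all tested genes) and 0 with a negative one. The median was 0.17, with 19 of 20 above 0 and Hspa8 at -0.01. Hsph1, an Hsp110 exchange factor, had 0.33 (SE 0.105), the Hsp90 gene Hsp90ab1 0.19 (SE 0.0627), and the co-chaperone Bag3 0.33 (SE 0.111). The small heat shock gene Hspb1 had 0.81 (SE 0.305). The Hsp70 gene Hspa1b had 0.87 (SE 0.327), but shares nearly all of its sequence with Hspa1a, so its counts are uncertain. None was called (lowest adjusted p 0.344), and the count of 7 ranged from 3 to 10 over the settings.

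Immediate early genes, which neurons switch on within minutes of activity, were mixed. Of 25 tested, 10 had an unadjusted p below 0.05 with a positive difference (40%, against 4.36% of all tested genes) and 1, Dusp1, with a negative one (-0.42). The median difference was 0.18, with 17 of 25 above 0. The median hypoxia effect was negative in both genotypes, -0.33 in WT and -0.14 in P301S. Fos (-0.43), Arc (-0.16), Nr4a1 (-0.15) and Nr4a2 (-0.13) had negative differences that did not pass at that level. Homer1, whose short activity-induced form remodels synaptic scaffolds, had a difference of 0.48 (SE 0.114, adjusted p = 0.155). Its WT levels ran from 120.5 to 148 CPM (median 130.3) in normoxia and 86.7 to 117 CPM (median 103) in hypoxia. In P301S it had 105, 116, 122, 107 and 140.5 CPM in normoxia and 112 to 133 CPM (median 132) in hypoxia. The WT groups did not overlap, with hypoxia lower, and the P301S groups overlapped over most of their range. The transcription factor genes Egr3 (0.39, SE 0.111), Jun (0.49, SE 0.152) and Egr4 (0.84, SE 0.274) had negative values in WT and positive ones in P301S. Fosb fell with hypoxia in WT (-0.71, adjusted p = 0.0429), stood at -0.13 in P301S, and had a difference of 0.57 (SE 0.193, adjusted p = 0.353).

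Neuropeptide and stress hormone genes followed, with none called. Of 17 genes on the neuropeptide list, 5 had an unadjusted p below 0.05 and a positive difference (29.4%, against 4.36% of all tested genes). These were Npy, Bdnf, Vgf, Cck and Scg2, and the median of the list was 0.17. Bdnf is a neurotrophin gene and is also counted among the immediate early genes above. Npy, a peptide of interneurons that restrains excitation, rose with hypoxia in P301S by 0.50 (SE 0.0874, adjusted p = 0.0134) and was at 0.14 in WT, and the difference was 0.36 (SE 0.119, adjusted p = 0.344). Npy had 18.6, 20.4, 16.1, 15.3 and 19.0 CPM in P301S normoxia and 21.5 to 27.3 CPM (median 26.0) in P301S hypoxia, without overlap. WT ranges were 21.4 to 29.1 CPM (median 25.3) in normoxia and 24.97 to 31.4 CPM (median 28.04) in hypoxia, so the P301S hypoxia libraries lay within the WT normoxia range.

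Of 14 glucocorticoid-responsive genes, 4 had an unadjusted p below 0.05 and a positive difference (28.6%, against 4.36% of all tested genes). These were Sgk1, Zbtb16, Pdk4 and Nr3c2, and the median of the list was 0.26. Sgk1, a kinase gene induced by glucocorticoids, had 0.59 (SE 0.165, adjusted p = 0.274). It ran from 53.8 to 73.6 CPM (median 62.0) in WT normoxia and 51.5 to 70.5 CPM (median 60.4) in WT hypoxia. In P301S normoxia it had 59.2, 55.7, 54.8, 57.2 and 54.0 CPM, and in P301S hypoxia 63.5 to 120.1 CPM (median 74.5). The P301S groups did not overlap, and 1 hypoxia library stood far above the others. Fkbp5, the classical glucocorticoid target, rose in P301S by 0.52 (adjusted p = 0.0127) and stood at 0.27 in WT, with a difference of 0.25 (95% interval -0.01 to 0.50).

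Sterol genes mostly had the opposite sign, with 16 of 18 below 0. Of the 18 tested genes of sterol metabolism, 3 had an unadjusted p below 0.05, each with a negative difference (16.7%, against 5.07% of all tested genes). Among them were Stard4 (-0.38, SE 0.111), a sterol carrier, and Insig1 (-0.45, SE 0.146), which holds the sterol sensor in the ER. The list had a median of -0.16, with a positive median effect in WT (0.15) and -0.04 in P301S.

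Other prostaglandin genes were not called with Ptgs2. Of 13 tested, Ptgs2 alone was called, and 3 had an unadjusted p below 0.05 with a negative difference (23.1%, against 5.07% of all tested genes). These were the synthases Ptges (-0.59, SE 0.213) and Ptgds (-1.49, SE 0.657) and the receptor gene Ptgdr (-1.31, SE 0.501). Ptgds is also a marker of the meninges. Markers of meningeal fibroblasts had a median difference of -0.94, with 11 of 12 below 0 and 2 lower at an unadjusted p below 0.05 (16.7%). Their mean log2 score per library ran from -0.84 to 0.80 in WT normoxia, -1.07 to 0.88 in WT hypoxia, -0.61 to 1.12 in P301S normoxia and -1.22 to 0.60 in P301S hypoxia. With that score as a covariate no gene was called (lowest adjusted p 0.0907; 1350 genes at an unadjusted p below 0.05). The part of meningeal tissue in the values of Ptgds and Ptgdr was not tested.

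Of 22 nuclear genes of oxidative phosphorylation, 19 had a difference above 0 and 4 an unadjusted p below 0.05, all positive (18.2%, against 4.36% of all tested genes), led by the cytochrome oxidase subunits Cox5a (0.47, SE 0.132) and Cox8a (0.42, SE 0.123), and the median was 0.07. Of 28 targets of the hypoxia-inducible factors, 2 were higher (Eno1 and P4ha1) and 1 lower (Car9) at that level, also with a median of 0.07. These are 7.14% and 3.57% of the targets, against 4.36% and 5.07% of all tested genes. None of 24 cytosolic ribosomal protein genes had an unadjusted p below 0.05, and their median was 0.00.

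**Figure D3:**
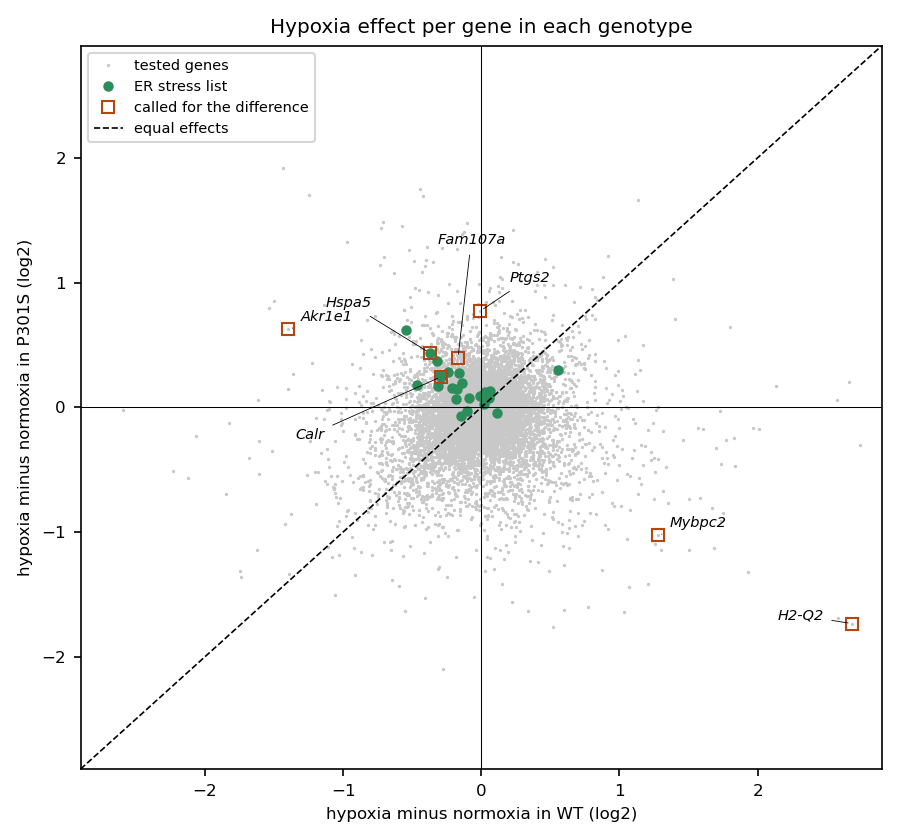
Hypoxia minus normoxia (log2) in WT (x axis) against P301S (y axis) for each tested gene (grey), with the 23 ER stress genes in green, the 7 called genes as open squares and a dashed line of equal effects. The called genes lie away from the line in the quadrants of opposite sign; 6 tested genes fall outside the axes.

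Over all genes, hypoxia effects in the genotypes were weakly related. The Spearman correlation across the 17788 genes was 0.13 and Pearson's r 0.08; these use separate libraries for each genotype, and genes are not independent replicates. Of the 17788 tested genes, 9941 had effects of the same sign. The median standard error of the difference was 0.141, against 0.0972 and 0.102 for the effects in WT and in P301S. The median absolute effects were 0.0894 in WT and 0.0999 in P301S, no larger than these errors. With effects of that size, the correlation cannot show whether the genotypes respond alike. For 81.6% of the genes the 95% interval lay within 1 log2 unit of 0, from 42.9% of the 4447 genes lowest in mean CPM to 99.2% of the 4447 highest.

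Clock output genes were among those with a hypoxia effect in both genotypes. Hypoxia called 13 genes in WT (0.0731%) and 73 in P301S (0.41%), with 5 shared: Dbp, Nr1d1, Rasal2, Gm35552 and 1700016P03Rik. Of the 5, none had an unadjusted p below 0.05 for the difference; they were chosen from the same libraries, so this is a description. Dbp, a clock output transcription factor, had a median of 24.7 CPM (19.4 to 32.3) in WT normoxia and 43.0 CPM (37.5 to 54.2) in WT hypoxia. In P301S it had 29.5, 23.6, 22.4, 24.4 and 18.3 CPM in normoxia and 35.1 to 41.5 CPM (median 39.1) in hypoxia. Dbp was higher in hypoxia without overlap in both genotypes, and the difference of effects was -0.12 (95% interval -0.44 to 0.21).

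Nr1d1, the clock repressor REV-ERB alpha, rose by 0.63 in WT (adjusted p = 0.00041) and 0.41 in P301S (adjusted p = 0.0272), with a difference of -0.22 (-0.45 to 0.01). It ran from 61.4 to 77.7 CPM (median 71.5) in WT normoxia, 90.8 to 122 CPM (median 109) in WT hypoxia and 98.3 to 120.1 CPM (median 110.4) in P301S hypoxia, against 92.4, 79.6, 82.5, 91.1 and 70.3 CPM in P301S normoxia. Hypoxia was higher without overlap in both genotypes. Of 8 tested clock output genes, 1 had an unadjusted p below 0.05 for the difference (Bhlhe41, -0.26), and of 9 core clock genes 3 did (Per2 0.31, Rora -0.67, Npas2 -0.38). Over all tested genes, 9.43% had such a p in either direction. Rora is also a marker of thalamus and habenula, whose 10 tested markers had a median difference of -0.34, with 8 below 0 and Rora alone at an unadjusted p below 0.05; the part of such tissue in its value was not tested. Xdh, the purine-oxidising enzyme xanthine dehydrogenase, rose in P301S by 1.21 (adjusted p = 0.0109) and stood at 0.92 in WT (adjusted p = 0.0824), with a difference of 0.29 (-0.31 to 0.89).

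Genes chosen for hypoxia in 1 genotype often had the same sign in the other. Of the 13 called in WT, 12 kept the sign in P301S, the exception being Akr1e1, and the median absolute effect was 0.69 in WT and 0.26 in P301S. Of the 73 called in P301S, 60 kept it, with medians of 0.44 in P301S and 0.16 in WT. Over all 17788 tested genes, 9941 had effects of the same sign. The smaller value on the side not used for the choice is a property of such a choice and is not a result. At an unadjusted p below 0.05 for the difference were 44 of the 73 and 6 of the 13, against 9.43% of all tested genes. Such a choice also favours a low p for the difference, because the same libraries enter both. Beside Akr1e1, the WT-called genes Arhgef19 (a guanine nucleotide exchange factor, 0.38), Fosb, Tjap1 (a tight junction-associated protein, 0.22), Nell1 (a secreted growth factor, -0.21) and the pseudogene Mindy4b-ps (-0.70) had an unadjusted p below 0.05 for the difference.

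**Figure D4:**
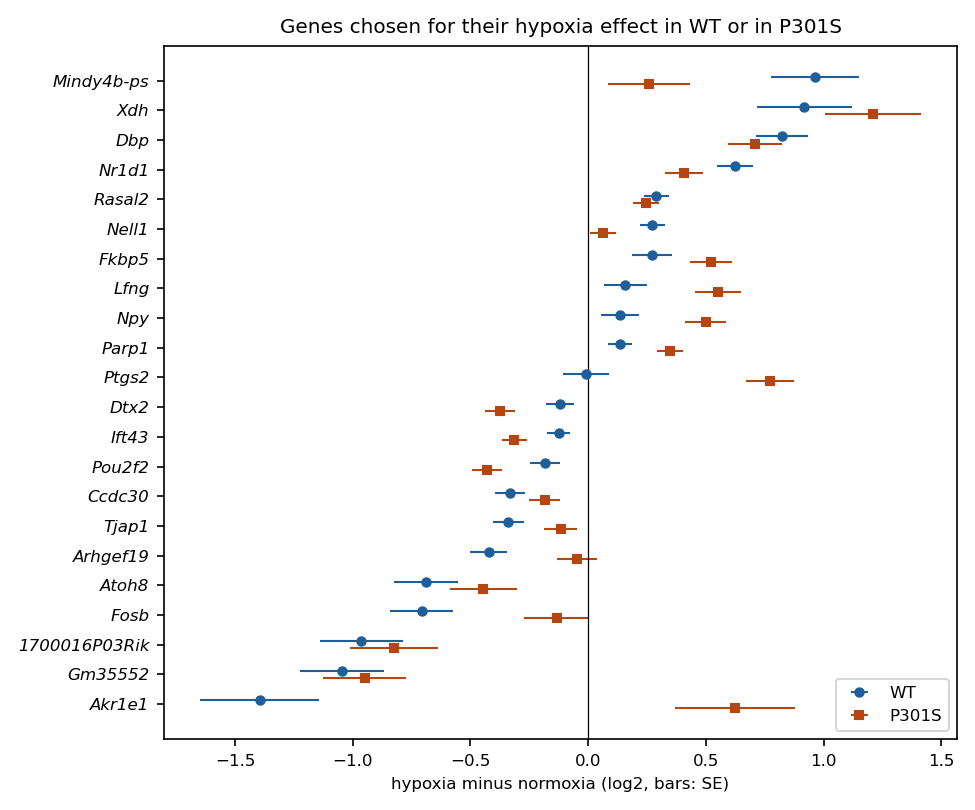
Hypoxia minus normoxia (log2, x axis) with its SE in WT (circles) and P301S (squares) for the 13 genes called in WT and the 10 with the lowest p in P301S (rows). Dbp, Nr1d1, Rasal2, Xdh, Gm35552 and 1700016P03Rik have effects of the same sign in both genotypes, and Akr1e1 has opposite signs.

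Beyond the called genes, those with the lowest p and a negative difference were long. The 10 lowest had a median gene-body length of 260754.5 bp, and 7 of them exceeded 100 kb, against 0 of the 10 with the lowest p and a positive difference and 14.2% of all tested genes. Kcnip4, a modulator of A-type potassium channels, had -0.72 (SE 0.146, adjusted p = 0.0786), Fhit, a dinucleoside hydrolase at a fragile site, -1.09 (SE 0.227, adjusted p = 0.0839), and Lrrtm4, a postsynaptic organiser, -0.67 (SE 0.149, adjusted p = 0.134). Kcnip4 ran from 67.6 to 97.4 CPM (median 79.8) in WT normoxia and 80.5 to 115 CPM (median 92.9) in WT hypoxia. In P301S it had 122, 152, 134, 162.5 and 129.9 CPM in normoxia and 87.7 to 125.5 CPM (median 100.7) in hypoxia. The ranges overlapped within each genotype, and P301S normoxia was the highest group.

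Fhit had 3.85 to 7.03 CPM (median 4.58) in WT normoxia and 5.36 to 7.82 CPM (median 7.16) in WT hypoxia. P301S libraries had 5.73, 8.63, 10.2, 10.9 and 10.4 CPM in normoxia and 4.23 to 6.67 CPM (median 6.32) in hypoxia, with 1 normoxia library inside the hypoxia range. Cntn5 (a contactin), Nek10 (a kinase), Mad1l1 (a spindle checkpoint protein) and Ccdc57 (a centrosomal protein) were the other long genes, at -0.76, -0.77, -0.45 and -0.40. Intronic reads entered these counts, since whole gene bodies were counted. In the 1779 longest tested genes, 212 had an unadjusted p below 0.05 with a negative difference and 70 with a positive one, and in the 1779 shortest 35 and 102. Across genes, the difference had a Spearman correlation of -0.14 with length and 0.14 with GC content, as a description. With offsets for length and GC content no gene was called (lowest adjusted p 0.0556). Under them the difference was -0.48 for Kcnip4, -0.86 for Fhit and -0.45 for Lrrtm4, and the ER list had 14 of 23 members at an unadjusted p below 0.05 and a median of 0.35.

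Col9a2, a collagen IX chain of 15938 bp and therefore not among the long genes, had the lowest p of a negative difference after Mybpc2 and H2-Q2 (-0.96, SE 0.188, adjusted p = 0.0618). It ran from 3.98 to 6.28 CPM (median 5.28) in WT normoxia and 6.23 to 8.58 CPM (median 7.78) in WT hypoxia. P301S had 6.54, 7.09, 7.62, 7.33 and 5.12 CPM in normoxia and 3.54 to 6.09 CPM (median 5.07) in hypoxia. The groups overlapped in each genotype, and hypoxia was mostly higher in WT and mostly lower in P301S. Mpc1, a subunit of the mitochondrial pyruvate carrier, had -0.38 (SE 0.0859) and the potassium channel gene Kcnh4 -0.78 (SE 0.176), both with adjusted p = 0.134. On the positive side Hnrnpab, an RNA-binding protein, had 0.53 (SE 0.115, adjusted p = 0.134), with 65.1% of its gene body under another gene.

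**Figure D5:**
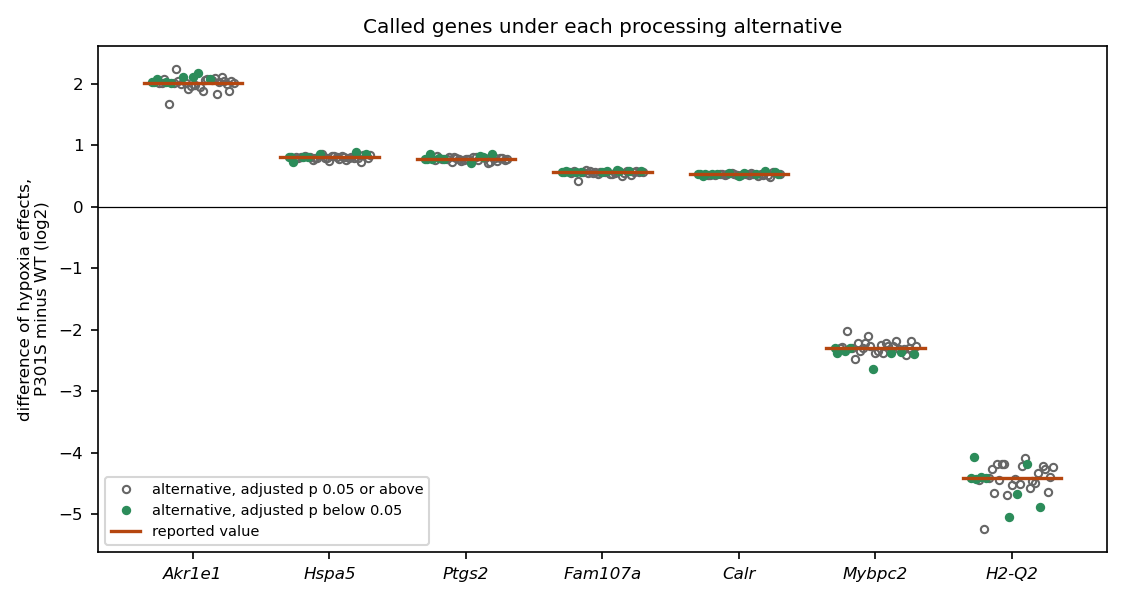
The difference of hypoxia effects (log2, y axis) of the 7 called genes (x axis) as reported (line) and under each processing alternative (points, filled where the adjusted p was below 0.05; 35 alternatives, 33 for Mybpc2 and H2-Q2). The size of each difference stays on its side of 0, from 0.72 to 0.89 for Hspa5 and 1.67 to 2.25 for Akr1e1, while most points are not filled.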

How the data were processed

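RNA from whole hippocampus was sequenced as stranded mRNA libraries, per the labels. The authors deposited raw counts per gene. Per the file headers, featureCounts 1.6.2 counted read pairs over whole gene bodies with no strand setting, on Ensembl release 90 (GRCm38), from alignments named as free of duplicates. HISAT2, mm10 and DESeq2 1.6.3 are named in the submitters' processing notes. By that tool's default a read lying in several genes is lost, and 48.1% of tested genes overlap another. Duplicate removal can lower abundant short genes.

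Counts were analysed in R 4.3.3 with edgeR 4.0.16 (limma 3.58.1): filterByExpr by group (minimum count 10), TMM factors, and 1 robust quasi-likelihood model of 23 libraries and 4 group means. Genes with a two-sided Benjamini-Hochberg adjusted p below 0.05 over the 17788 tested genes were called. The newer quasi-likelihood fit (legacy off) was used because earlier processing of these data had used it. The contrast, the 45 gene lists (662 of 713 entries tested) and the rule for named genes were chosen with earlier results of these data known. Named genes were the called genes, the 10 with the lowest p in each direction (mean of at least 1 CPM, no predicted names), the genes called for hypoxia in WT, the 10 with the lowest p for hypoxia in P301S, and up to 4 of each list with the lowest p; further list members in the text were chosen after their values were seen, as were the roles within the ER list and the promoter motif. SE is the fold change over the root of F. Choroid and meningeal scores are mean log2 CPM (prior count 2). GENCODE M21 gave symbols. Total counts were 19.1 to 25.8 M per library, for which the median 95% interval half-width is 0.29 log2. Replicates of a group correlated at 0.976 to 0.993 and differed beyond sampling noise (lowest chi-square over its degrees of freedom, 5.14). Replicates were numbered in accession order, so no pairing was used. The code was tested on simulated data. Alternatives were RLE factors, DESeq2 1.42.0, voom with sample quality weights, other filters, length and GC offsets, covariates, and libraries left out. One member of the sterol list is not reported here by name.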

Additional observations from a re-analysis of the deposited data

Results flagged for a closer look

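The hypoxia effect differed between the genotypes by the test of the difference itself for Calr (0.53), Fam107a (0.56), Ptgs2 (0.78), Akr1e1 (2.02), Hspa5 (0.81), Mybpc2 (-2.30) and H2-Q2 (-4.42), all log2 values of P301S minus WT.

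Of 100 groups of levels or scores examined for a library far from the others of its group, 9 had one, where chance flags about 1 in 20. Among called genes these were Akr1e1 at 6.03 CPM in P301S normoxia replicate 4 and Fam107a at 462 CPM in P301S hypoxia replicate 1. P301S hypoxia replicate 2 had the highest Sdf2l1 (13.7 CPM) and Pdia6 (141 CPM), and leaving it out gave 13 of 23 ER list members at an unadjusted p below 0.05 and a list median of 0.26. WT hypoxia replicate 2 had a high Pdia6 (117 CPM) and WT hypoxia replicate 4 a low Sdf2l1 (6.23 CPM). P301S hypoxia replicate 1 also had a low Fhit (4.23 CPM), and P301S hypoxia replicate 5 a high Sgk1 (120.1 CPM). WT normoxia replicate 4 had a low choroid plexus score (-2.93, mean log2 units). The part of choroid plexus tissue in the differences was not tested beyond the covariate and the libraries left out.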

How the results depend on the processing

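The calls depend on the processing and the sizes of the 7 differences much less, in settings that reuse the libraries from which the 7 were chosen. Against 7 called genes, DESeq2 called 52, voom with sample quality weights 29 and a choroid plexus covariate 13, while RLE factors and non-robust dispersions called the same 7. With no filter on low counts 4 were called, all among the 7. No gene was called with a minimum of 1 CPM, with length and GC offsets, without the 6 libraries lowest in choroid plexus markers, or, in alternatives added after seeing the data, with the legacy fit, without the 3 WT libraries numbered 37 or 32, or with a meningeal covariate, so 0 of the 7 kept their call there. The lowest adjusted p among settings with 0 calls ran from 0.0516 to 0.213 (edgeR), with 1058 to 2202 genes at an unadjusted p below 0.05. Leaving out 1 library gave 0 to 13 called genes and kept 0 to 6 of the 7, with 12 to 14 ER list members at an unadjusted p below 0.05 over all settings, 13 to 14 when 1 library was left out. Zero calls came without WT normoxia replicates 1, 3, 4 or 5, WT hypoxia 1, 4 or 5, P301S normoxia 2, 3 or 4, or P301S hypoxia 2, 3 or 6. Without WT normoxia 2 or WT hypoxia 2 there were 4, without WT hypoxia 6 or P301S hypoxia 4 there were 2, without WT hypoxia 3 or P301S hypoxia 1 there was 1, without P301S normoxia 1 there were 13, and without WT normoxia 6, P301S normoxia 5 or P301S hypoxia 5 there were 7, 8 and 6. The cause was not tested. Of 1463 values of 42 named genes, 1246 kept direction and side of the threshold, 172 lost a call, 37 gained one and 8 changed sign, all of genes with values near 0: Rasal2 (0.0122 with voom, 0.0379 with length and GC offsets, 0.0102 without the 6 libraries), Ccdc30 (-0.0026 without the 6), Gm35552 (-0.0698 without the 6, -0.0936 without the 3 WT libraries, and -0.023 to 0.236 with 1 library left out, below 0 without P301S normoxia replicate 1) and 1700016P03Rik (-0.00663 without the 3). Only the 7 called genes could lose a call, as the other 35 of the 42 had none, so all 172 losses fell on the 7. Each of the 7 passed in 8 to 13 of its 33 to 35 alternatives. No paired analysis was possible because the replicate numbers come from accession order.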

Other observations

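No marker of a hippocampal cell type was called. For the counts in this section, 4.36% of all tested genes had an unadjusted p below 0.05 with a positive difference and 5.07% with a negative one. Markers of CA2 and CA3 pyramidal cells had a median difference of 0.07, with 6 of 10 above 0 and 4 below, down to -0.60. Of the 10, 3 had an unadjusted p below 0.05, each with a positive difference. These were Amigo2 (0.46, SE 0.152), an adhesion molecule of CA2, Nptx1 (0.44, SE 0.17), a pentraxin of excitatory synapses, and Bok (0.43, SE 0.169), a BCL-2 family member. Of 9 markers of oligodendrocyte precursors, Olig2 (0.59, SE 0.153) and Olig1 (0.36, SE 0.14), transcription factors of that lineage, were higher at that level and Lhfpl3 (-0.40) was lower, whereas none of 13 myelin genes passed it. Of 12 microtubule-associated protein genes, Map2 (0.23, SE 0.1) and Map1b (0.23, SE 0.111) did, and Mapt, the mouse tau gene, had -0.09 (SE 0.0752). Of these 12, 6 were above 0 and 6 below.

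Genes of disease-associated microglia had a median difference of -0.06, with 6 of 15 above 0 and 9 below. Of the 15, Cst7 (-1.68, SE 0.48), a cathepsin inhibitor, and Spp1 (-1.98, SE 0.843), osteopontin, had an unadjusted p below 0.05, both negative. Their means were 0.418 and 4.50 CPM, and Spp1 is also made by meningeal cells. None of 10 homeostatic microglia genes had an unadjusted p below 0.05. Of 5 markers of blood left in the tissue, 1, the haemoglobin gene Hbb-bt, had an unadjusted p below 0.05 (-1.11, SE 0.468), and the median was -0.71, with 4 below 0 and 1 above. Of 45 lists, 4 held a called gene and 38 had a median within 0.2 of 0.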
